A study of Mus musculus with 4 samples.

Results

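Sebaceous and epidermal fatty acid metabolism was followed through 60 genes named for their part in making, modifying, storing, releasing or carrying fatty acids in skin. Every probe set annotated to one of these genes was taken on all 4 arrays. The annotation listed probe sets for 55 of the 60 genes, 117 probe sets in all, out of 18193 genes measured. Plin1, Acsl1, Awat1, Awat2 and Soat1 were not analysed here. A gene with more than 1 probe set was represented by its brightest, judged by the mean of the 4 arrays, and the remaining probe sets were read beside it.

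The cells were basal interfollicular keratinocytes from mouse tail epidermis, sorted for integrin alpha 6 and against CD34, a hair follicle bulge marker. All mice carried K14CreER, a tamoxifen-dependent Cre recombinase driven by a basal keratinocyte promoter, and SmoM2, an activated form of the Hedgehog transducer Smoothened. The SmoM2 group had intact Sox9 (2 arrays) and the Sox9cKO group carried a conditional deletion of Sox9, a hair follicle and cartilage transcription factor, on top of SmoM2 (2 arrays). Tamoxifen was given at 2.5 mg on 10 consecutive days and tissue was taken 9 weeks after the first dose. Both groups therefore expressed the oncogene, and cells without SmoM2 were not analysed here. The labels give no age, and they do not say how many mice stood behind an array, so the p-values speak of array-to-array spread. Part of it may be technical. Y-linked signal differed between the 2 arrays of each genotype, so the arrays did not all come from mice of the same sex. Xist was also above the array median on the arrays with Y-linked signal. Whether these arrays held RNA of both sexes was not tested. The part of sex in the spread was not tested.

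Fatty acids in epidermis are built by acetyl-CoA carboxylase and fatty acid synthase, lengthened by the Elovl elongases and given double bonds by the Scd and Fads desaturases. Sebocytes, the lipid-filled cells of the sebaceous gland, turn them into wax esters and triglycerides held in droplets, under the control of the nuclear receptor Pparg. Keratinocytes of the interfollicular epidermis instead channel very long fatty acids into the ceramides of the skin barrier.

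Median log2 signal lay between 5.45 and 5.48 on the 4 arrays, and Pearson's r across probe sets was 0.991 within each genotype and 0.978 to 0.980 between genotypes. The Sox9 probe set with the highest SmoM2 signal read 10.21 and 10.02 in SmoM2 against 6.75 and 5.70 in Sox9cKO (change -3.89, adjusted p = 0.00159). Another Sox9 probe set, at 8.77 and 9.27 against 8.06 and 8.48, had the highest mean over the 4 arrays. By the rule above it would stand for the gene, and it did not pass the test (adjusted p = 0.143 by limma on every probe set). Where the probe sets lie relative to the deletion was not analysed here. Y-linked genes were detected in SmoM2 replicate 2 and Sox9cKO replicate 1 (6.74 to 9.48, against 3.23 to 3.62 on the other arrays), and Xist read 8.11 and 10.92 on these and 11.76 and 11.97 on the others. Basal keratinocyte markers were present on every array, with a list mean of 11.34 to 11.91 and Krt14 between 13.15 and 13.76. Suprabasal markers were present too, with Krt10 at 12.98 and 12.95 in SmoM2 and 13.07 and 13.66 in Sox9cKO.

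The 250 bases before the annotated start are shown for 4 of the genes that fell in the Sox9cKO arrays, to show the sequence in which motifs were searched for genes of a droplet, an elongation, an uptake and a barrier role. The sequences are those of RefSeq on build GRCm38.p6, read 5′ to 3′ on the gene's strand, with motif matches on either strand in capitals.
Plin2, chr4:86670060-86670309, minus strand: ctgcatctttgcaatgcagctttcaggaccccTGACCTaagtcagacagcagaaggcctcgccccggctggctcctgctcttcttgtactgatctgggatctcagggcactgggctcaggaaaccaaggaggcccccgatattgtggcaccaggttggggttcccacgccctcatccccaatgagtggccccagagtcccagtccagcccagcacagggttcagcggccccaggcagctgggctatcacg
Elovl5, chr9:77917115-77917364, plus strand: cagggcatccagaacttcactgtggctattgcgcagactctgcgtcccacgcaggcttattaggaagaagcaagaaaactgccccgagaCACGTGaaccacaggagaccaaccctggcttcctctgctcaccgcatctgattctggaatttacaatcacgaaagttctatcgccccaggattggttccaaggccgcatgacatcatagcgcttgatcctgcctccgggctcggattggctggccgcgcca
Cd36, chr5:17835897-17836146, minus strand: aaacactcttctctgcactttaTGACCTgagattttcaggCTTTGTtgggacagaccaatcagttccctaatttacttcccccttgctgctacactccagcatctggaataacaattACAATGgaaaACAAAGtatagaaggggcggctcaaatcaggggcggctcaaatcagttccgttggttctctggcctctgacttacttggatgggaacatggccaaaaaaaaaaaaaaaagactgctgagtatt
Cyp4f39, chr17:32452473-32452722, plus strand: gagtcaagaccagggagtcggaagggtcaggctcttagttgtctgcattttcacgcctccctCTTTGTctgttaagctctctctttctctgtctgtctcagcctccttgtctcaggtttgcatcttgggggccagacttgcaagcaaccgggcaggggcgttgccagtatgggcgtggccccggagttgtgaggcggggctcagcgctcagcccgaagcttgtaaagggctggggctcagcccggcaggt

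RefSeq entries were found for 47 of the 60 genes, 62 windows in all, and for 6 of the 8 genes that fell. Both strands were searched for AGGTCA (bound by nuclear receptors), its direct repeat spaced by a single base (the PPAR element), CACGTG (the E-box), TCACNCCAC (a sterol response element), the Sox-type core ACAAAG, and ACAATG, another core of that type. The motif AGGTCA lay in 13 of 62 member windows and in 14% of 32851 windows of all genes, and the Plin2 match began 218 bases before the start and the Cd36 match 228. CACGTG lay in 3 of 62 windows against 6.02% of all, among them Elovl5 at 161 bases. ACAAAG lay in 5 of 62 windows against 16.5% of all, with matches at 210 and 123 bases in Cd36 and at 188 in Cyp4f39, and ACAATG in 5 of 62 against 10.7%, with a match at 133 bases in Cd36. TCACNCCAC lay in 1 of 62 against 1.05%. The direct repeat lay in none of the 62 and in 0.0335% of all. Of the 2 Mgll windows, 1 held CACGTG, and the Cers4 window held none of the motifs. No 2 matches overlapped in the 4 sequences shown.

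A few lipid droplet, lipase, uptake, elongation and barrier genes were lower when Sox9 was deleted, while none of the measured members grouped under fatty acid synthesis and activation (6 genes) or triglyceride synthesis (5 genes) passed the test. Of the 55 genes, 8 were lower in Sox9cKO (3.53% of all genes were called lower) and none was higher (2.66% of all genes were called higher), by limma at an adjusted p under 0.05 over all 18193 genes. At an unadjusted p under 0.05, 21 of the 55 were lower (9.01% of all genes) and 1 was higher (8.76% of all genes). The latter was Elovl4, by its brightest probe set only. The 8 were Cidea, Cd36, Lpl, Mgll, Plin2, Cers4, Cyp4f39 and Elovl5. Without a test, 11 genes were at least 2-fold lower with arrays of the genotypes not overlapping (2.41% of all genes) and none was at least 2-fold higher (1.75% of all genes). At any size, 27 were lower without overlap (21.8% of all genes) and 6 were higher (26.0% of all genes). The median log2 change, Sox9cKO minus SmoM2, was -0.18 over the 55 genes and 0.02 over all genes, with 38 of 55 below 0. In bulk samples such as these, fewer cells of a type and less RNA per cell cannot be told apart. The count of genes called lower was 4 without SmoM2 replicate 1 and 4 without Sox9cKO replicate 2.

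**Figure D1:**
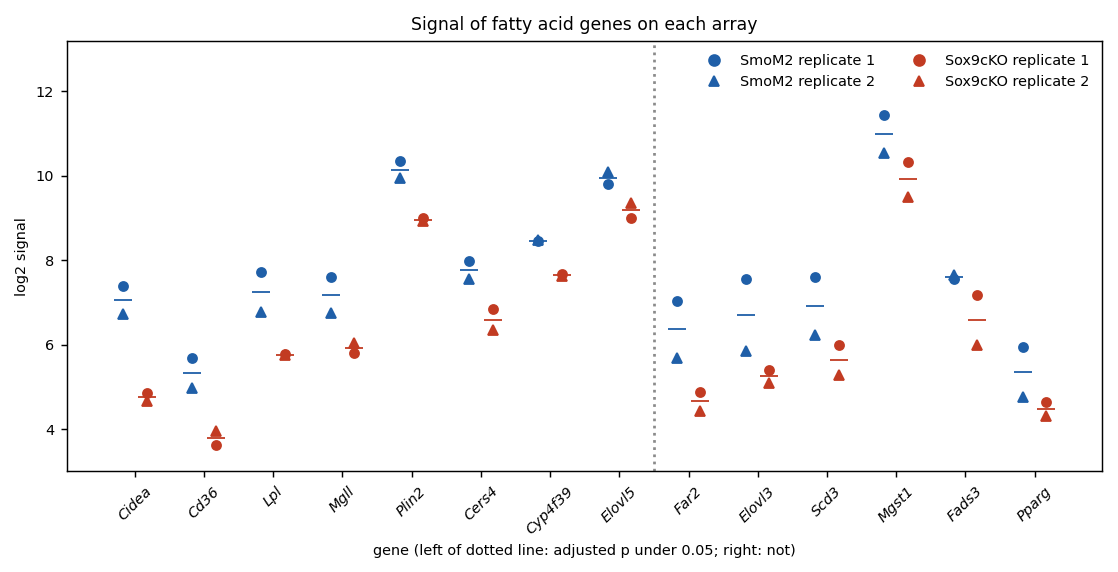
Log2 signal on each of the 4 arrays for the 8 genes that passed the test (left of the dotted line) and for 6 further genes with a 2-fold difference without overlap or with SmoM2 arrays at least 1 log2 unit apart (right). Circles are replicate 1, triangles replicate 2, and short lines the group means. Both SmoM2 arrays lie above both Sox9cKO arrays for all 14 genes, and SmoM2 replicate 1 lies far above replicate 2 for Elovl3, Scd3, Far2 and Pparg. Both patterns follow largely from how the genes were chosen.

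Among the lipid droplet genes, Cidea and Plin2 fell and 4 others did not pass. Cidea, which promotes droplet fusion, read 7.39 and 6.73 in SmoM2 against 4.86 and 4.67 in Sox9cKO. Its log2 change was -2.29 (SE 0.22), a 4.90-fold difference with adjusted p = 0.00174 (limma), and its Sox9cKO values lay below the array medians of 5.45 and 5.47, so the size of the fold is uncertain. Plin2, the droplet coat protein found in most cells, read 10.35 and 9.94 against 9.00 and 8.92. The difference for Plin2 was 2.27-fold (log2 -1.18, SE 0.17, adjusted p = 0.00813 by limma). Both SmoM2 arrays stood above both Sox9cKO arrays for each of these genes, and both calls held with any single array left out. Plin3, Plin4, Plin5 and Cidec did not pass, with differences of -0.03, 0.09, -0.34 and -0.07. Cidec, Plin4 and Plin5 were below the array median on all 4 arrays, so their values carry little signal, and Plin3 overlapped between genotypes (8.94 and 8.48 against 8.64 and 8.71).

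The lipases parted into 2 that fell and 3 that did not pass. Lpl, the secreted lipase that frees fatty acids from circulating triglyceride, read 7.72 and 6.77 in SmoM2 and 5.78 and 5.75 in Sox9cKO, a change of -1.48 (SE 0.28, 2.79-fold, adjusted p = 0.0256 by limma). Mgll, which splits the last acyl chain from monoglyceride, read 7.61 and 6.76 against 5.81 and 6.05, a change of -1.25 (SE 0.27, 2.38-fold, adjusted p = 0.0401 by limma). SmoM2 replicate 1 exceeded replicate 2 by 0.95 for Lpl and 0.85 for Mgll, and both still lay above the Sox9cKO arrays. Leaving out Sox9cKO replicate 1 or 2 gave an adjusted p of 0.0643 or 0.0696 for Lpl. For Mgll it was 0.102 without SmoM2 replicate 1 (change -0.82), 0.126 without Sox9cKO replicate 1 and 0.0668 without Sox9cKO replicate 2, and it was 0.0541 after quantile normalization. For the other lipolytic genes the difference was 0.23 for Pnpla2 (adipose triglyceride lipase), -0.16 for its coactivator Abhd5 and -0.12 for the hormone-sensitive lipase Lipe, with adjusted p between 0.494 and 0.817 (limma).

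Of the genes for uptake and carriage, Cd36 fell and the 4 carriers did not pass. Cd36, a fatty acid translocase, read 5.69 and 4.98 in SmoM2 and 3.64 and 3.96 in Sox9cKO, a change of -1.54 (SE 0.24, 2.90-fold, adjusted p = 0.0120 by limma). The groups did not overlap, and the call held with any single array left out. Both Sox9cKO values and that of SmoM2 replicate 2 lay below their array medians (5.45 to 5.47), so the size of the fold is uncertain. Fabp5, the epidermal fatty acid binding protein, read 13.79 and 13.82 against 13.91 and 13.83, a difference of 0.06 whose 95% interval ran from -0.25 to 0.38. Fabp4, the adipocyte form, was below the array median on every array, at 4.34 and 4.65 against 4.45 and 4.56. Apoe, an apolipoprotein of many cell types, read 13.22 and 13.36 against 12.79 and 12.97 (change -0.41, adjusted p = 0.182 by limma). Apoc1 read 11.61 and 11.15 against 11.47 and 12.07, with overlapping groups.

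Endothelial cells, adipocytes and macrophages also express Cd36 and Lpl, so markers of these cells were read beside them, although the sort against CD34 would also remove cells that carry it, as many endothelial cells do. None of the 7 endothelial markers passed, with list means of 4.46 and 4.47 in SmoM2 and 4.47 and 4.51 in Sox9cKO. Pecam1 lay between 4.58 and 4.72. Of the 7, 6 were below the array median on all arrays, and the exception was Kdr (5.47 to 5.85). None of the 5 measured adipocyte markers passed (list means 4.81 and 4.78 against 4.83 and 4.96), and Adipoq lay between 3.29 and 3.63. Of the 5, 3 were below the array median on all arrays, and Retn (5.93 to 6.42) and Slc2a4 (5.99 to 6.46) were not. None of the 8 macrophage and Langerhans cell markers passed (5.10 and 4.91 against 5.16 and 5.17), with Adgre1 between 4.58 and 4.70 and Ptprc between 3.57 and 4.07. Of the 8, 5 were below the array median on all arrays, and Csf1r (6.53 to 6.80), Cd68 and Cd74 were not. That list held differences in both directions, from -0.54 for Cd68 (adjusted p = 0.0757 by limma) to 0.61 for Cd74 (adjusted p = 0.0758 by limma), and Cd207, a Langerhans cell marker, differed by 0.48. Of the fibroblast list, 5 of 6 did not pass and the 1 that rose was Dcn (8.85 and 8.70 against 12.09 and 12.78, change 3.66). The other 5 had changes from -0.07 to 0.72. List means, Dcn included, were 5.20 and 5.03 against 5.83 and 5.99. Of the 6, 4 were below the array median on all arrays, and Dcn and Col1a2 (5.16 to 6.59) were not. The part of Dcn-expressing cells, or of any of these cell types, in the results was not tested.

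Barrier lipid genes gave 2 further decreases among 7. Cers4, a ceramide synthase, read 7.99 and 7.55 in SmoM2 and 6.84 and 6.35 in Sox9cKO, a change of -1.17 (SE 0.22, 2.26-fold, adjusted p = 0.0220 by limma). Cyp4f39, the fatty acid omega-hydroxylase of acylceramide synthesis, read 8.45 and 8.47 against 7.68 and 7.62, a change of -0.81 (SE 0.13, 1.75-fold, adjusted p = 0.0138 by limma). Its SmoM2 arrays differed by 0.03 and its Sox9cKO arrays by 0.06, so the gap between genotypes was far wider than either pair. Adjusted p for Cers4 became 0.132, 0.0514 and 0.0712 without SmoM2 replicate 1, SmoM2 replicate 2 and Sox9cKO replicate 2, and for Cyp4f39 it became 0.0755, 0.0883 and 0.0585.

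The remaining barrier genes did not pass. Alox12b, a lipoxygenase that oxidises acylceramide, had a difference of -0.55 (adjusted p = 0.178 by limma) and was below the array median on all arrays. The difference was 0.07 for its partner Aloxe3 and -0.11 for Cers3, which makes ceramides of very long chains. Abca12, the lipid transporter of lamellar granules, differed by 0.06, with SmoM2 at 6.86 and 7.19 and Sox9cKO at 6.82 and 7.33. Alox12e, an epidermal lipoxygenase, spread widely in both genotypes, at 8.03 and 8.58 against 7.80 and 8.86. The 8 suprabasal markers had list means of 10.17 and 9.87 in SmoM2 against 10.60 and 10.96 in Sox9cKO. None of the 8 was called lower (3.53% of all genes) and 3 were called higher in Sox9cKO (2.66% of all genes). Those were Lor, Dsg1a and Flg, with changes of 1.56, 1.87 and 1.82, and Flg missed the threshold without SmoM2 replicate 1 or 2 (adjusted p = 0.0886 and 0.163 by limma). Basal markers had changes from -0.87 to 0.12 with a median of -0.43, and none of the 8 passed. Of these, 5 were lower in Sox9cKO without overlap (21.8% of all genes) and none was higher without overlap (26.0% of all genes). Whether the barrier genes follow the share of basal and suprabasal cells was not tested.

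Of the 6 elongases Elovl5 passed the test and 5 did not. Elovl5, which lengthens polyunsaturated fatty acids, read 9.81 and 10.10 in SmoM2 and 9.01 and 9.36 in Sox9cKO, a change of -0.77 (SE 0.18, 1.71-fold, adjusted p = 0.0498 by limma). That value sits at the threshold, and it became 0.104, 0.240 and 0.190 without SmoM2 replicate 1, SmoM2 replicate 2 and Sox9cKO replicate 1, and 0.0544 after quantile normalization. Elovl1, an elongase of saturated very long chains, read 11.12 and 11.39 against 10.83 and 10.85 (change -0.42, adjusted p = 0.189 by limma). Elovl4, which makes the ultra-long acids of acylceramide, read 10.31 and 10.34 against 10.59 and 10.75, a change of 0.34 without overlap (adjusted p = 0.244 by limma). The other Elovl4 probe set went the other way, at 10.60 and 10.27 against 10.18 and 10.36, a difference of -0.16 with overlap. Elovl7 was higher without overlap, by 0.28, and Elovl6 overlapped (change 0.29).

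Elovl3, an elongase of the sebaceous gland, had the largest difference between the 2 SmoM2 arrays of all 55 genes. It read 7.56 and 5.85 in SmoM2 and 5.41 and 5.09 in Sox9cKO, the latter 2 below the array medians of 5.45 and 5.47. The change of -1.45 (SE 0.48, adjusted p = 0.158 by limma) did not pass. The Sox9cKO mean minus SmoM2 replicate 1 was -2.31, and minus replicate 2 it was -0.59. Elovl3 was set apart for this SmoM2 difference, so leaving out replicate 2 enlarges its change by construction.

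No desaturase passed the test. Scd1 and Scd2, which put the first double bond into stearate, read 11.64 and 11.26 against 11.74 and 11.72, and 12.34 and 12.41 against 12.56 and 12.45, respectively. Both were slightly higher in Sox9cKO without overlap, by 0.28 and 0.13. Scd3, the form restricted to the sebaceous gland, was lower without overlap, at 7.60 and 6.22 against 5.99 and 5.27 (change -1.28, SE 0.43, adjusted p = 0.167 by limma). The Sox9cKO mean of Scd3 minus SmoM2 replicate 1 was -1.97, and minus replicate 2 it was -0.59. The 3 Scd genes are close paralogs, and signal shared between their probes was not tested. Fads3 read 7.57 and 7.66 in SmoM2 but 7.18 and 6.00 in Sox9cKO, so its spread came from the Sox9cKO pair (change -1.02, SE 0.34, adjusted p = 0.161 by limma). Without Sox9cKO replicate 1 the change of Fads3 was -1.61. The other Fads3 probe sets gave -0.34 and -0.37 on all 4 arrays, with overlapping groups. Fads1 and Fads2, the desaturases of polyunsaturated fatty acids, were also lower in Sox9cKO replicate 2 than in replicate 1, at 6.71 against 7.78 and 6.42 against 7.12, and their groups overlapped. Fads6 had a difference of -0.34 and was below the array median on all arrays.

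**Figure D2:**
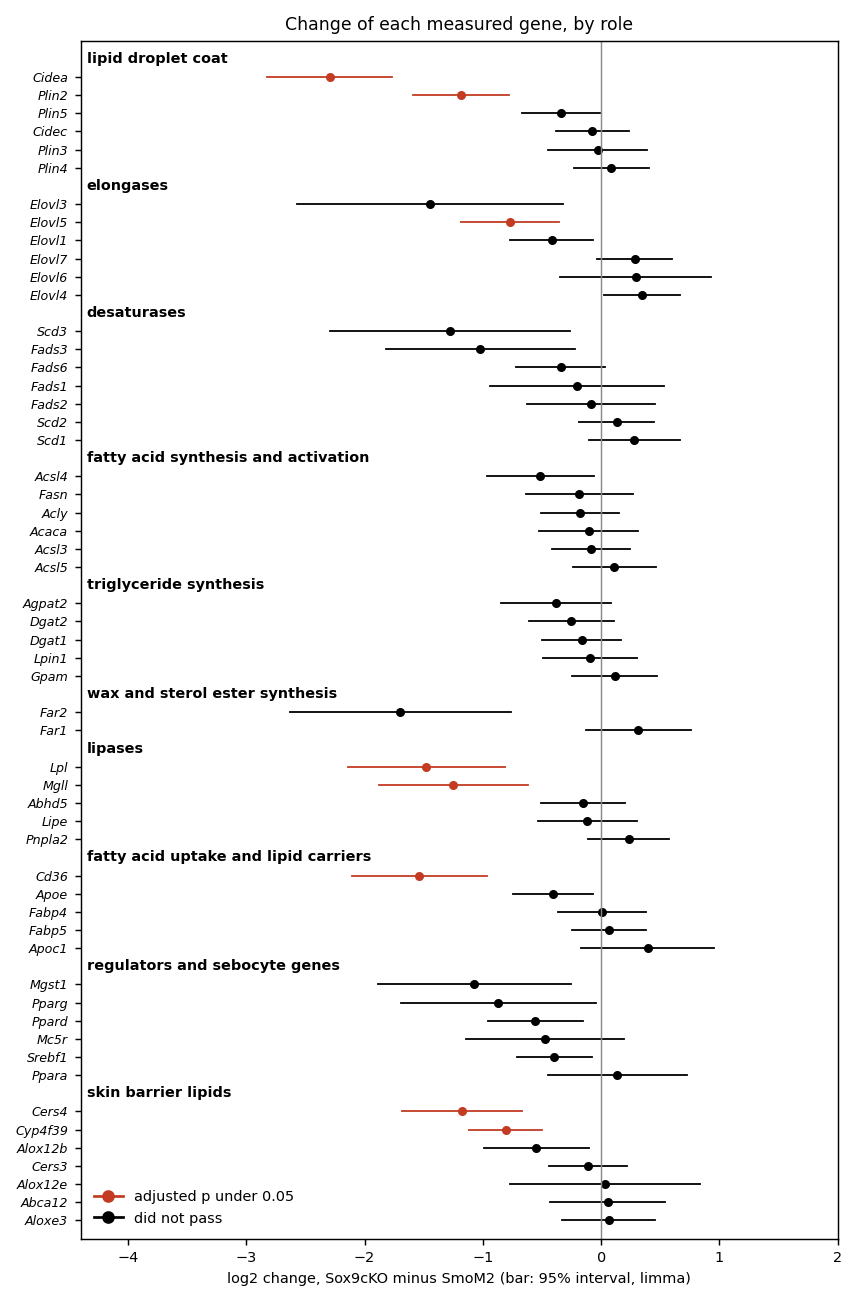
Log2 change, Sox9cKO minus SmoM2, of the 55 measured genes grouped by role, with 95% intervals from limma that are not adjusted for the number of genes. Red marks the 8 genes past an adjusted p of 0.05, all on the negative side, with Cidea at -2.29. The highest value is that of Apoc1, at 0.39.

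Synthesis and activation of fatty acids showed no call. Fasn, fatty acid synthase, read 9.75 and 9.37 in SmoM2 and 9.56 and 9.19 in Sox9cKO, a change of -0.18 (95% interval -0.64 to 0.27). The difference was -0.11 for Acaca, acetyl-CoA carboxylase (interval -0.53 to 0.31), and -0.18 for Acly, which supplies acetyl-CoA from citrate (interval -0.51 to 0.15). Among the acyl-CoA synthetases, Acsl4 was lowest, at 8.66 and 9.19 against 8.39 and 8.43 (change -0.51, adjusted p = 0.212 by limma). With the mean of its 3 probe sets, Acsl4 passed at -0.63 (adjusted p = 0.0443 by limma). For Acsl3 and Acsl5 the differences were -0.09 and 0.11.

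Triglyceride synthesis likewise showed no call among 5 genes, with changes from -0.38 to 0.11. Gpam, the mitochondrial glycerol phosphate acyltransferase, read 9.31 and 9.35 in SmoM2 and 9.29 and 9.59 in Sox9cKO. Agpat2, the next acyltransferase, read 8.45 and 9.01 against 8.31 and 8.38 and did not overlap, and the phosphatase Lpin1 had a difference of -0.09. Dgat1 and Dgat2, which complete triglyceride, differed by -0.17 and -0.25, both without overlap. Over all roles, 40 of the 47 genes that did not pass had a 95% interval within 2-fold in either direction, and for 14 of the 47 the interval did not include 0.

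The wax pathway was read through the fatty acyl-CoA reductases Far1 and Far2, which make fatty alcohols. Far2 read 7.04 and 5.69 in SmoM2 and 4.89 and 4.44 in Sox9cKO, a change of -1.70 (SE 0.40, 3.24-fold) that missed the threshold (adjusted p = 0.0534 by limma). Its Sox9cKO values lay below the array medians of 5.45 and 5.47, which leaves the size of the fold uncertain. The Sox9cKO mean of Far2 minus SmoM2 replicate 1 was -2.37, and minus replicate 2 it was -1.02. Far1 read 9.49 and 9.98 against 9.96 and 10.12, a change of 0.31 with overlapping groups.

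Of the 6 regulators and sebocyte genes 5 had a negative difference, and none passed. Pparg read 5.95 and 4.76 in SmoM2 and 4.65 and 4.32 in Sox9cKO, so the Sox9cKO mean minus SmoM2 replicate 2 was -0.28 and minus SmoM2 replicate 1 was -1.46 (change -0.87, SE 0.35, adjusted p = 0.253 by limma). Pparg was set apart for this SmoM2 difference, so leaving out replicate 2 enlarges its change by construction. SmoM2 replicate 2 and both Sox9cKO arrays lay below the array medians for Pparg. Srebf1, the activator of fatty acid synthesis genes, read 10.99 and 10.94 against 10.51 and 10.62 (change -0.40, adjusted p = 0.168 by limma). Ppard read 7.69 and 7.84 against 7.41 and 7.01 (change -0.56, adjusted p = 0.13 by limma), and Ppara differed by 0.14 with overlap. Mgst1, a microsomal glutathione transferase, read 11.44 and 10.54 against 10.33 and 9.51 (change -1.07, SE 0.35, adjusted p = 0.151 by limma), with replicate 1 the higher in both genotypes. Mc5r, the melanocortin receptor that promotes sebum output, was below the array median on all 4 arrays and was highest in SmoM2 replicate 1 (5.47 and 4.58 against 4.37 and 4.72).

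The 2 SmoM2 arrays differed more for these genes than for genes at large. The median size of the difference between SmoM2 replicates was 0.29 on the log2 scale over the 55 genes and 0.16 over all genes. Between the Sox9cKO replicates it was 0.19 and 0.15. In the SmoM2 pair it was larger still for sebaceous markers outside the 55 genes (0.39), fibroblast markers (0.35) and basal keratinocyte markers (0.32). It was smaller for macrophage and Langerhans cell markers (0.22), other genes of the same pathways (0.20), and endothelial (0.20), adipocyte (0.14) and suprabasal (0.11) markers. Below the array median on all 4 arrays were 8 of the 55 genes and 6388 of all 18193. SmoM2 replicate 1 was at least 1 log2 unit above replicate 2 for 4 of the 55 genes (0.253% of all genes) and replicate 2 was that far above replicate 1 for none (0.264% of all genes). The 4 were Elovl3, Scd3, Far2 and Pparg, by 1.71, 1.38, 1.35 and 1.19. In the Sox9cKO pair the same genes differed by 0.32, 0.72, 0.45 and 0.32, replicate 1 again being the higher. Of the 8 genes that fell, 6 were higher in SmoM2 replicate 1, the exceptions being Cyp4f39 and Elovl5. The same held for 30 of the 55 genes and 9638 of all 18193.

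Several other measures also differed between the SmoM2 arrays, Y-linked genes and Xist among them. Spiked labelling controls averaged 9.00 in replicate 1 and 8.30 in replicate 2, and 9.19 and 7.66 in the Sox9cKO arrays. The 18S rRNA signal was 11.24 and 10.09 against 11.12 and 9.87, and Actb read higher at its 3′ than its 5′ probe set by 0.74 and 0.46 against 0.75 and 0.52. All 8 basal keratinocyte markers were lower in SmoM2 replicate 1 than in replicate 2 (list means 11.54 and 11.91), and 6 of 8 suprabasal markers were higher. Sebaceous markers outside the 55 genes had list means of 8.37 and 8.28 in SmoM2 against 7.57 and 7.73 in Sox9cKO, with a median difference of -0.10 over the 4 and Prdm1 alone far below 0. Of these 4, Krt79 did not pass (12.93 and 12.86 against 12.27 and 12.69), nor did Krt7 (difference 0.21). Prdm1, a transcriptional repressor, fell from 8.78 and 9.30 to 5.95 and 5.57 (change -3.28, adjusted p = 0.000446 by limma), and Gata6, a transcription factor of the sebaceous duct, rose by 0.78 (adjusted p = 0.0481 by limma). The Gata6 call was lost with any 1 array left out (adjusted p between 0.0535 and 0.228) and with the mean of its probe sets (change 0.36). The part of these measures in the differences described was not tested.

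**Figure D3:**
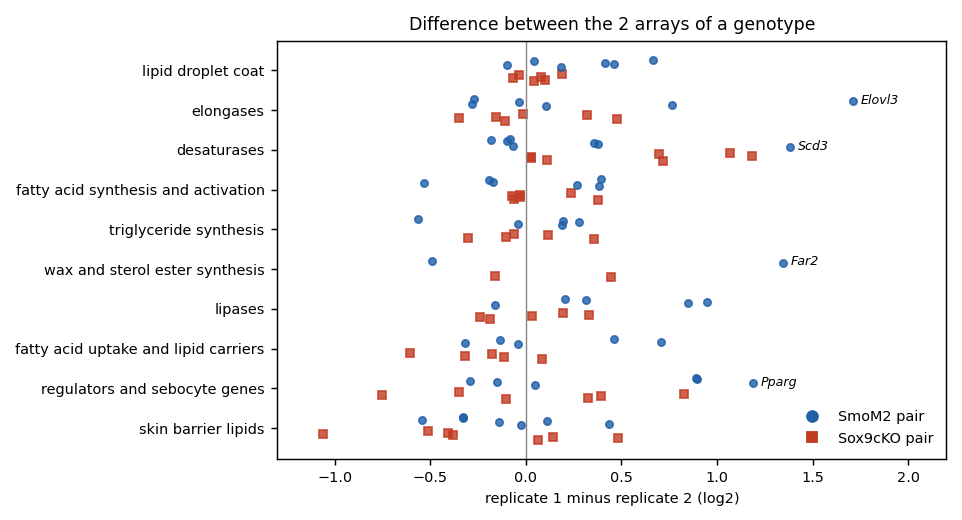
Replicate 1 minus replicate 2 in log2 units for each measured gene, by role, for the SmoM2 pair (blue circles) and the Sox9cKO pair (red squares). Elovl3 at 1.71, Scd3 at 1.38, Far2 at 1.35 and Pparg at 1.19 stand out in the SmoM2 pair. In the Sox9cKO pair the desaturases spread most, with Fads3 at 1.18.

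Of the 35 genes with several probe sets, 12 had probe sets with differences of opposite sign, none of them a gene that fell. Of the 117 probe sets, 8 were called lower when every probe set was tested (2.51% of all 34945 probe sets were called lower). The 3 Cers4 probe sets changed by -1.17, -0.98 and -1.16, with adjusted p of 0.0340, 0.0539 and 0.0165 (limma). Those of Elovl5 changed by -0.79 and -0.77, and it was the first that passed (adjusted p = 0.0325 against 0.0735). Of the 4 Mgll probe sets none passed, at -1.25, -1.01, -0.78 and -0.17. Cd36 gave -1.54, -1.35 and -0.32, and Lpl gave -1.48 and -0.69. Averaging over probe sets moved Cd36 to -1.07, Lpl to -1.09 and Mgll to -0.80, none of which passed (adjusted p = 0.0957, 0.0625 and 0.0758 by limma).

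The second Far2 probe set showed the same pattern as the first, with SmoM2 at 6.07 and 4.19 and Sox9cKO at 3.75 and 3.61. The other Scd3 probe set gave -0.43. One probe set of Scd2 departed from the others, at 6.85 and 8.96 in SmoM2 and 6.82 and 5.63 in Sox9cKO (difference -1.68), where the probe set standing for the gene gave 0.13. This was the largest difference between SmoM2 replicates among all probe sets of these genes, and here replicate 2 was the higher.

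**Figure D4:**
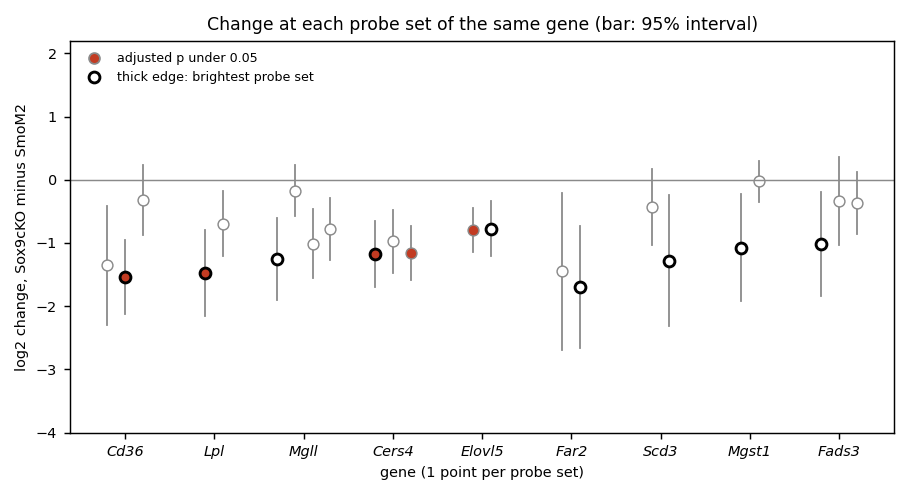
Log2 change, Sox9cKO minus SmoM2, at each probe set of the 9 genes from the plot of array signals that have several, with 95% intervals from limma. Red fill marks adjusted p under 0.05 over every probe set, and the thick edge the probe set standing for the gene. All points lie below 0, and the 3 probe sets of Cers4 lie between -1.17 and -0.98. For the points with a thick edge, a place below 0 follows largely from how the genes were chosen.

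Other genes of the same pathways were read from lists of 93 genes, of which 86 were measured. In these lists 8 of the 86 genes were called lower, none was called higher and the median change was -0.01. Of all genes, 3.53% were called lower and 2.66% higher. Of 23 further genes of fatty acid synthesis and elongation, 2 fell. Hacd1, a dehydratase of the elongation cycle, read 9.09 and 8.97 in SmoM2 against 7.48 and 7.45 (change -1.57, SE 0.13, adjusted p = 0.00100 by limma), and the fatty acid transporter Slc27a1 changed by -1.18. Among 18 triglyceride and droplet genes 2 fell. These were Hsd17b11, a droplet-associated dehydrogenase, at 7.24 and 7.51 against 5.54 and 5.20 (change -2.01, SE 0.17, adjusted p = 0.00100 by limma), and the acyltransferase Gpat3, with a change of -1.49. With the mean of its probe sets Hsd17b11 changed by -0.90. For Gpat3 both Sox9cKO values, 4.63 and 4.87, lay below the array medians of 5.45 and 5.47.

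Of 20 further ceramide genes, 4 fell (3.53% of all genes were called lower). Sdr9c7, a dehydrogenase of acylceramide maturation, read 5.95 and 6.04 in SmoM2 and 4.77 and 4.60 in Sox9cKO (change -1.31, SE 0.14, adjusted p = 0.00242 by limma). Its Sox9cKO values lay below the array medians of 5.45 and 5.47. Ugcg, which makes glucosylceramide, changed by -0.98, the ceramide synthase Cers2 by -0.81 and the acid ceramidase Asah1 by -0.68. Without SmoM2 replicate 2 these 3 missed the threshold, with adjusted p of 0.142, 0.144 and 0.142. Cers2 and Asah1 also missed it with any other single array left out (0.0541 to 0.102 and 0.0557 to 0.216), and Ugcg without Sox9cKO replicate 2 (0.112). Of 25 fatty acid oxidation genes none passed, 17 had a positive change and the median was 0.10. A difference between the oxidation list and the other lists was not tested.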

How the data were processed

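Expression was measured on Affymetrix 3′ arrays from 100 ng of total RNA per sample. The authors deposited 1 value per probe set for each array, on a scale whose range is that of log2 signal. How they normalized and summarised the probes is not stated in the labels, and the submitters' processing notes name R 2.14.0 without its role. Of 45101 probe sets, 34945 with a single gene symbol and no control role were kept, symbols were updated through entrez IDs to RefSeq names, and 18193 genes resulted. A probe set naming several genes, or none, was left out.

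The comparison used limma 3.58.1 under R 4.3.3 (linear fit with moderated variances, two-sided, no covariate, Benjamini-Hochberg adjustment over all genes, threshold 0.05, 7.17 degrees of freedom). The procedure was tested on simulated data. With 2 arrays against 2, an exact permutation test of 1 gene cannot go below p = 0.333, so calls rest on the spread shared across genes. Values are given as arrays or with the SE of the fit, and arrays have no read depth, so their number limits the precision. The members, lists, motifs and alternatives were chosen with earlier results of these data known. Described in full were genes past the threshold, genes at least 2-fold different without overlap, and genes whose SmoM2 arrays differed by at least 1 log2 unit. Which further genes to quote was settled after their values were seen. Alternatives were averaging a gene's probe sets, every probe set, dim genes left out, quantile normalization, an intensity trend with robust prior, the replicate number as a block, and each array left out.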

Additional observations from a re-analysis of the deposited data

How the results depend on the processing

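Over the 10 alternatives, 468 of 532 member values kept their sign and their side of the threshold. With dim genes left out, 5 of the 37 members then tested were called lower, since Cidea, Lpl and Cd36 were not tested. Leaving out each array in turn gave 4 to 9 genes called lower and 534 to 900 genes called in all, against 8 and 1126. These fits lend the remaining single array the spread of the intact pair. Cidea and Plin2 were called in each alternative that tested them. None of the 55 was called higher under any alternative, and the members' median change lay between -0.28 and -0.16. No label says that the replicate numbers pair the arrays. Over 18193 genes the replicate differences of the 2 genotypes correlated at 0.0923, although labelling controls, 18S and the Actb difference were higher on replicate 1 in both. With the replicate number as a block, 15 members and 1919 genes were called, the members added being Elovl3, Scd3, Far2, Fads3, Pparg, Mgst1 and Alox12b. Signs that turned were those of uncalled genes. With the mean of probe sets Abhd5 was at 0.0060, Fabp4 at -0.13, Plin5 at 0.024 and Scd2 at -0.43, and with quantile normalization Fabp4 was at -0.0055. With 1 array left out the ranges were -0.20 to 0.31 for Abca12, -0.30 to 0.0906 for Acaca, -0.025 to 0.24 for Acsl5, -0.50 to 0.56 for Alox12e, -0.13 to 0.26 for Aloxe3, -0.0909 to 0.67 for Elovl6, -0.15 to 0.17 for Fabp4, -0.74 to 0.33 for Fads1, -0.44 to 0.26 for Fads2, -0.38 to 0.0086 for Fasn, -0.0372 to 0.26 for Gpam, -0.28 to 0.0483 for Lipe, -0.27 to 0.0855 for Lpin1, -0.26 to 0.20 for Plin3, -0.24 to 0.51 for Ppara. The cause of these shifts was not tested.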

Other observations

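Left out of the members was a probe set annotated to both 1810013A23Rik and Ppard. Its signal was 5.82 and 5.73 for SmoM2 and 6.24 and 5.72 for Sox9cKO.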
